A study of Mus musculus with 12 samples.

Results

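The genes described here are 40 targets of the transcription factor NRF2 (gene Nfe2l2) and enzymes of glutathione metabolism, together with the regulators of NRF2. They were named by pathway and also chosen by measured values: some of them were already known from these arrays to be lower with the MEK inhibitor at 24 h and higher at 72 h. Each gene was read from the probe set with the highest mean signal among those that the array annotation pairs with that gene alone, which left 36 of the 40 genes measured, of 18193 genes in all. Prdx1 and Ftl1 had only probe sets paired with several genes, and Prdx6 and G6pdx had no probe set of their own, so these 4 are not reported.

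RNA came from cultured B16-OVA cells, melanoma cells of the mouse engineered with ovalbumin as an antigen. They received 100 nM of the MEK inhibitor (MEKi) GDC-0623, which blocks the kinase upstream of ERK, or its solvent DMSO. Cells were harvested 24 h or 72 h after the addition, which gave 4 groups of 3 Affymetrix expression arrays. All 12 arrays come from the same line, and the sample labels name no other agent. The study's methods list blasticidin, penicillin and streptomycin in the culture medium of this line. The replicates are called biological, but whether each was its own culture is not stated. The p-values below therefore measure the spread between these samples, and 3 arrays a group limit the precision. All values are log2 signals, so a difference of 1 is a 2-fold change.

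NRF2 is held in the cytoplasm and marked for destruction by KEAP1, an adaptor of a ubiquitin ligase. When oxidants or electrophiles modify KEAP1, NRF2 builds up, pairs with a small MAF protein in the nucleus and binds antioxidant response elements, where BACH1 competes with it. Its targets import cystine, make and recycle glutathione, reduce thioredoxin and peroxiredoxins, break down heme, supply NADPH and conjugate or export electrophiles. Cystine import through Slc7a11 and heme breakdown through Hmox1 are also driven by other stress pathways.

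The letters an antioxidant response element is built on were searched in the promoters of these genes. The core TGACNNNGC was sought on both strands (the reverse strand reads GCNNNGTCA) in the RefSeq windows, GRCm38.p6, from 250 bases before to 50 bases after each gene's start. Of the 34 genes with such a window, 15 (44.1%) held the core, beside 3781 of 27025 genes (14.0%) and 8 of 60 other genes of the pathway (13.3%). The same core followed by an A was in 3 of the 34 (Blvra, Pgd and Txnrd1), or 8.82%, beside 3.45% of all genes. The following are shown because their genes span the regulators, the low-then-high genes and the genes higher at both times, each read 5′ to 3′ along the gene's own strand with the core in capitals.
Gclm, chr3:122245403-122245451, plus strand: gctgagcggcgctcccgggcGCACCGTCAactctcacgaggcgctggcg
Txnrd1, chr10:82859094-82859142, plus strand: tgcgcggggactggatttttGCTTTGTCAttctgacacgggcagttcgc
Maff, chr15:79346489-79346537, plus strand: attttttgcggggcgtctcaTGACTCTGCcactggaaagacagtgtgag
Mafk, chr5:139791503-139791535, plus strand: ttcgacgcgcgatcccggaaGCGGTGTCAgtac
Nfe2l2, chr2:75704875-75704913, minus strand: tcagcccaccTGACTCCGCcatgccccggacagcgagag
Mgst1, chr6:138140451-138140499, plus strand: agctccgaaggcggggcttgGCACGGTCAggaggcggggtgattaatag

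The Gclm, Txnrd1, Mafk and Mgst1 matches carried the core on the reverse strand, and those of Maff and Nfe2l2 on the gene's strand. Other genes with a match were Abcc4, Blvra, G6pdx, Mafg, Me1, Pgd, Prdx1, Srxn1 and Ugdh, of which the matches in Me1 and Prdx1 also spell the AP-1 site TGACTCA on one strand. A match is a description of letters and not of binding. The 13 measured genes that held the core had a median MEKi minus DMSO difference of -0.18 at 24 h and 0.26 at 72 h, and the 18 measured genes with a window but no core had -0.02 and 0.15. Differences of this kind helped to choose the genes, so the medians are a description. Whether the genes with and without the core differ was not tested.

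The cells read as melanocytic in all groups: the mean signals of 8 melanocyte genes ran from 10.60 (Oca2) to 14.30 (Dct), while those of 7 immune genes ran from 3.09 to 6.32. Dusp6, a target of the MEK pathway, was at 11.49 to 11.57 in DMSO and 9.88 to 10.58 with MEKi at 24 h, and at 10.84 to 11.17 and 9.51 to 9.85 at 72 h, so the groups did not overlap at either time. The gap between the 3′ and 5′ signals of the Dap spike, a measure of labelling length, was 1.96 to 2.16 on the 24 h arrays and 1.34 to 1.47 on the 72 h arrays. Harvest time and labelling therefore cannot be told apart in any comparison across times, and the gap ranges of DMSO and MEKi lay close together within a time.

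DMSO 72 h replicate 3 was the lowest of its group in 23 of the 36 genes (63.9%), beside 34.9% of all genes. It lay below the mean of the other DMSO 72 h arrays by 0.94 in Srxn1 (-0.94, at the 0.044th percentile of all genes), by 0.82 in Gclm (-0.82) and by 0.60 in Gsr (-0.60), and above it in Slc7a11 (0.27) and Nfe2l2 (0.25). For genes shown array by array, 72 h differences that it moved by more than 0.1 or by more than 1.5 times are given with and without it. Other arrays also led their group in these genes. DMSO 72 h replicate 1 and DMSO 24 h replicate 2 were each the highest in 21 genes (58.3%, beside 23.6% and 32.1% of all genes), and MEKi 72 h replicate 2 in 20 (55.6%, beside 30.2%). MEKi 24 h replicate 1 was the lowest of its group in 19 (52.8%, beside 31.2%), and both 24 h arrays named here lie on the side of the lower values with MEKi at 24 h.

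At 24 h the genes leaned lower with MEKi, and at 72 h higher. With limma and Benjamini-Hochberg adjustment over all probe sets, 10 of the 36 were called lower at 24 h and 6 higher, beside 5.86% and 5.01% of all genes. At 72 h 11 were called higher and 2 lower, beside 4.03% and 5.14% of all genes, and without DMSO 72 h replicate 3 the counts were 11 and 1. The median difference over the 36 was -0.10 at 24 h and 0.21 at 72 h, beside 0.01 at both times over all genes. These values helped to choose the genes, so the counts describe them and support nothing.

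The direction turned between the times in 18 of the 36 genes (50%), which were below DMSO at 24 h and above it at 72 h, as were 19.8% of all genes. Slc7a11, Gclm and Srxn1 were called in both directions, out of 14 such genes on the array. Hmox1, Me1, Gsta4 and Mgst1 were called higher at both times and Maff and Cbr3 lower at both times. Over all 18193 genes, 254 were called higher at both times and 311 lower at both times. For the difference of the MEKi effects, 72 h minus 24 h, 12 of the 36 were called higher and 1 lower, beside 1.97% and 2.1% of all genes. Gsta2 was the 1 called lower.

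**Figure D1:**
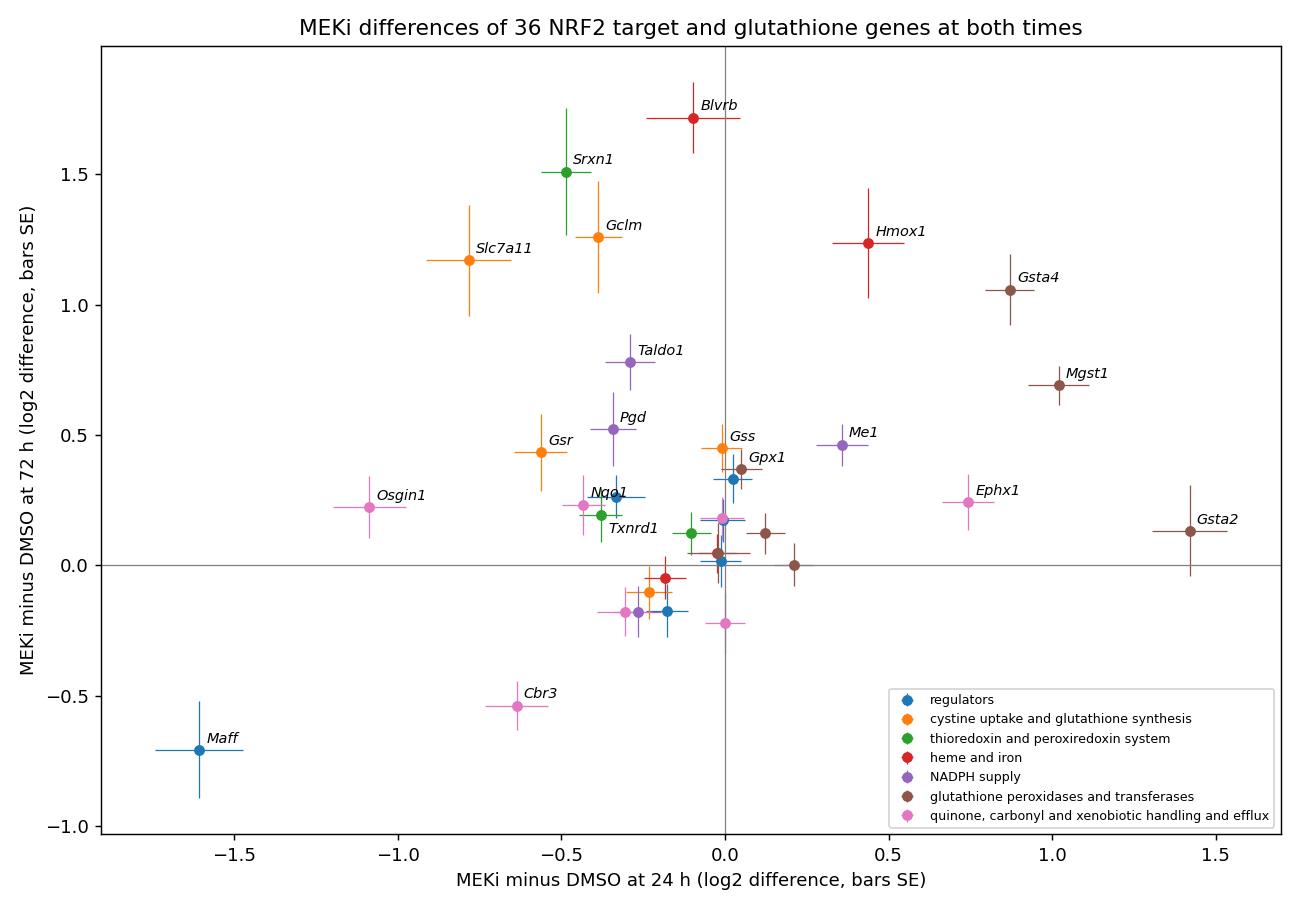
Each point is 1 of the 36 measured genes, coloured by role, with its MEKi minus DMSO difference (log2) at 24 h on the x axis and at 72 h on the y axis, and bars of 1 standard error. Srxn1, Gclm and Slc7a11 sit at the upper left, Gsta4, Hmox1 and Mgst1 at the upper right, and Maff and Cbr3 at the lower left.

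Among the regulators, NRF2's own transcript moved little with MEKi and was called at 24 h only in some alternative fits. Nfe2l2 read 11.13, 11.20 and 11.13 in DMSO at 24 h, 10.91, 11.00 and 11.02 with MEKi at 24 h, 10.97, 10.92 and 11.19 in DMSO at 72 h and 10.71, 10.90 and 10.95 with MEKi at 72 h. The MEKi arrays lay below the DMSO arrays at 24 h and overlapped them at 72 h, and the differences were -0.18 ± 0.06 (SE) and -0.17 ± 0.10, the second -0.09 without DMSO 72 h replicate 3. Keap1, its repressor, read 8.90, 8.87 and 8.81, then 8.77, 8.85 and 8.94 with MEKi at 24 h, and 8.87, 8.86 and 8.71 against 8.95, 9.02 and 8.99 at 72 h. Its differences were -0.01 ± 0.07 and 0.17 ± 0.08, with the groups overlapping at 24 h and apart at 72 h. A second, dimmer Keap1 probe set differed by -0.10 ± 0.065 at 24 h, with all MEKi arrays below DMSO. At 72 h it differed by -0.02 ± 0.11 with overlapping arrays, so the 72 h separation rests on the brighter probe set.

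The small MAF genes, whose proteins partner NRF2 on DNA, did not move together. Maff read 6.92, 7.32 and 7.05 in DMSO and 5.32, 5.40 and 5.75 with MEKi at 24 h, and 6.66, 5.84 and 6.22 against 5.63, 5.68 and 5.29 at 72 h. All MEKi arrays were below all DMSO arrays at both times, by 1.61 ± 0.14 at 24 h (3.05-fold; -1.61 on the log2 scale) and by 0.71 ± 0.19 at 72 h (-0.71). The 72 h call of Maff was lost without DMSO 72 h replicate 3 (-0.72), and on leaving out DMSO 72 h replicate 1 (-0.50) or any single MEKi 72 h array. Maff's means with MEKi, 5.49 at 24 h and 5.53 at 72 h, were near that of the median probe set (5.36). Both were in the range of the immune genes given above. Mafk read 8.45, 8.15 and 8.34 in DMSO and 7.89, 8.05 and 8.00 with MEKi at 24 h, against 7.69, 7.56 and 7.65 and then 7.84, 7.98 and 7.87 at 72 h. Mafk was thus lower with MEKi at 24 h (-0.33 ± 0.09) and higher at 72 h (0.26 ± 0.08). It passed the threshold at neither time, but did in some of the alternative fits described below. Mafg differed by 0.02 and 0.33, and Bach1, the competing repressor, by -0.01 and 0.02.

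Of the 5 genes of cystine uptake and glutathione synthesis, 3 were called lower with MEKi at 24 h and 3 higher at 72 h. Over all genes the shares were 5.86% and 4.03%, and the MEKi differences helped to choose the listed genes. Slc7a11, the cystine/glutamate antiporter subunit, read 5.53, 5.78 and 5.71 in DMSO and 4.78, 4.70 and 5.19 with MEKi at 24 h, then 7.86, 7.43 and 7.91 in DMSO and 8.43, 9.37 and 8.91 with MEKi at 72 h. The groups were apart at both times, with MEKi 0.78 ± 0.13 below DMSO at 24 h (-0.78, a call lost without MEKi 24 h replicate 1) and 1.17 ± 0.21 above it at 72 h (2.25-fold). Its second probe set was lower by 0.91 at 24 h (-0.91) but differed by 0.12 ± 0.21 at 72 h with overlapping arrays, so the 72 h difference rests on the brighter probe set. With MEKi at 24 h the mean of the brighter probe set, 4.89, was under that of the median probe set (5.36) and in the range of the immune genes given above.

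Glutathione is built by glutamate-cysteine ligase, whose catalytic and modifier subunits are Gclc and Gclm, and by glutathione synthetase, Gss. Gclm read 10.11, 10.25 and 10.03 in DMSO and 9.76, 9.74 and 9.73 with MEKi at 24 h, then 10.25, 10.20 and 9.41 in DMSO and 11.10, 11.53 and 11.01 with MEKi at 72 h. All MEKi arrays were below DMSO at 24 h (-0.39 ± 0.07) and above it at 72 h (1.26 ± 0.22), and without DMSO 72 h replicate 3 the 72 h difference was 0.99. Gclc was also below DMSO on all MEKi arrays at 24 h, with a call only in some alternative fits, but was not above it at 72 h. It read 9.32, 9.50 and 9.41 in DMSO and 9.13, 9.16 and 9.24 with MEKi at 24 h. At 72 h it read 9.11, 8.99 and 8.90 against 8.85, 9.07 and 8.77, where the groups overlapped. Its differences were -0.23 ± 0.07 and -0.10 ± 0.10. The second, dimmer Gclc probe set was called lower at 24 h (-0.37 ± 0.075) and differed by -0.04 ± 0.11 at 72 h. The 24 h call of Gclm was lost on leaving out any one array other than MEKi 24 h replicate 3 or DMSO 24 h replicate 3, and in 1 fit of all 12 arrays.

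Gss read 8.77, 8.68 and 8.75 in DMSO and 8.67, 8.73 and 8.77 with MEKi at 24 h, against 8.41, 8.44 and 8.34 and then 8.77, 9.00 and 8.77 at 72 h. The groups were alike in range at 24 h (-0.01 ± 0.06) and apart at 72 h (0.45 ± 0.09, a call lost without DMSO 72 h replicate 1 or MEKi 72 h replicate 2). Gsr, which reduces oxidised glutathione with NADPH, read 9.81, 9.99 and 9.99 in DMSO and 9.25, 9.42 and 9.43 with MEKi at 24 h, and 10.02, 9.98 and 9.40 against 10.21, 10.27 and 10.22 at 72 h. Gsr was lower at 24 h by 0.56 ± 0.08 (-0.56) and above DMSO at 72 h by 0.43 ± 0.15, a difference that was 0.23 without DMSO 72 h replicate 3.

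**Figure D2:**
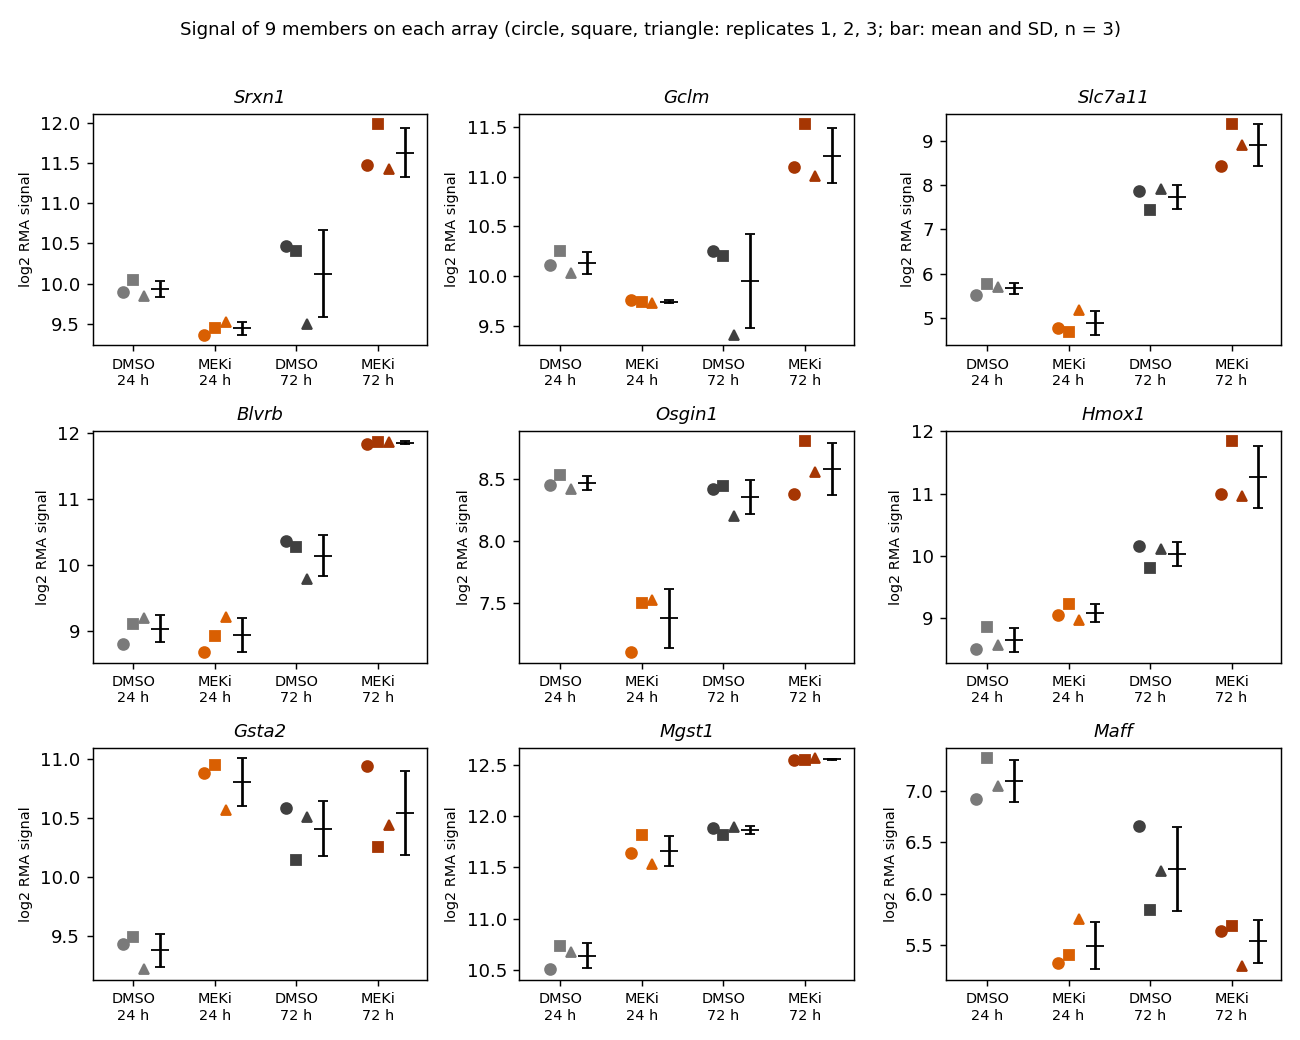
Log2 signal of 9 genes on each of the 12 arrays by group, with circles, squares and triangles for replicates 1, 2 and 3 and a bar for the mean and SD of 3 arrays. Srxn1 and Gclm show DMSO 72 h replicate 3 below the other DMSO 72 h arrays, while Slc7a11, Hmox1 and Mgst1 are above their 24 h DMSO level in DMSO at 72 h.

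In the thioredoxin system, Srxn1 had the largest difference between the MEKi effects at 24 h and 72 h among the 36 genes. Srxn1, sulfiredoxin, which restores over-oxidised peroxiredoxins, read 9.89, 10.04 and 9.85 in DMSO and 9.36, 9.44 and 9.52 with MEKi at 24 h, then 10.47, 10.40 and 9.50 in DMSO and 11.48, 11.99 and 11.43 with MEKi at 72 h. All MEKi arrays were below DMSO at 24 h, by 0.49 ± 0.08 (-0.49, a call lost in 1 fit of all 12 arrays), and above it at 72 h, by 1.51 ± 0.24 (2.85-fold). Without DMSO 72 h replicate 3 the 72 h difference was 1.20. The brightest probe set can share sequence with other transcripts, but of 3 further Srxn1 probe sets all were higher at 72 h, by 0.92 to 1.52.

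Txnrd1, thioredoxin reductase, read 12.20, 12.25 and 12.14 in DMSO and 11.75, 11.84 and 11.86 with MEKi at 24 h, against 12.24, 12.21 and 11.94 and then 12.28, 12.44 and 12.25 at 72 h. It was lower at 24 h (-0.38 ± 0.07, a call lost without MEKi 24 h replicate 1) and 0.19 ± 0.10 above DMSO at 72 h, where the groups were apart by little and the difference was 0.10 without DMSO 72 h replicate 3. Txn1, thioredoxin itself, differed by -0.10 and 0.12.

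Of the 4 heme and iron genes, Hmox1 and Blvrb were called higher with MEKi at 72 h, beside 4.03% of all genes. Hmox1, heme oxygenase, read 8.50, 8.86 and 8.57 in DMSO and 9.05, 9.23 and 8.96 with MEKi at 24 h, then 10.16, 9.81 and 10.11 in DMSO and 10.99, 11.84 and 10.96 with MEKi at 72 h. Unlike Srxn1 and Gclm it was above DMSO on all arrays at both times, by 0.44 ± 0.11 and 1.24 ± 0.21. The 24 h call of Hmox1 was lost on leaving out MEKi 24 h replicate 1 or 2 or DMSO 24 h replicate 1 or 3, and in 1 fit of all 12 arrays.

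Blvrb, a biliverdin and flavin reductase, read 8.80, 9.10 and 9.19 in DMSO and 8.68, 8.92 and 9.20 with MEKi at 24 h, against 10.36, 10.27 and 9.78 and then 11.83, 11.87 and 11.86 at 72 h. Its groups overlapped at 24 h (-0.10 ± 0.14) and were far apart at 72 h, where its difference of 1.72 ± 0.14 (3.29-fold) was the largest of the 36, or 1.54 without DMSO 72 h replicate 3. Blvra, the other biliverdin reductase, differed by -0.18 and -0.05, and Fth1, the ferritin heavy chain, by -0.02 and 0.05.

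NADPH supply was split. Pgd, of the pentose phosphate pathway, read 12.25, 12.41 and 12.33 in DMSO and 11.92, 11.99 and 12.05 with MEKi at 24 h, and 12.30, 12.36 and 11.79 against 12.65, 12.76 and 12.61 at 72 h. Its MEKi arrays were all below DMSO at 24 h (-0.34 ± 0.07, a call lost in 1 fit of all 12 arrays and on leaving out most single arrays) and all above at 72 h (0.52 ± 0.14, or 0.34 without DMSO 72 h replicate 3). Taldo1, transaldolase of the same pathway, read 11.60, 11.67 and 11.76 in DMSO and 11.29, 11.37 and 11.50 with MEKi at 24 h, and 11.69, 11.71 and 11.37 against 12.27, 12.44 and 12.40 at 72 h.

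Taldo1 thus lay below DMSO at 24 h by 0.29 ± 0.08 (-0.29) and above it at 72 h by 0.78 ± 0.11, or 0.67 without DMSO 72 h replicate 3. With the replicate number as a block, Taldo1 was called lower at 24 h and Pgd higher at 72 h, neither of which was called without it. Tkt, transketolase, was on the lower side at both times (-0.27 and -0.18), and Me1, malic enzyme, on the higher side (0.36 and 0.46).

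Of the 7 peroxidases and transferases, Gsta2, Gsta4 and Mgst1 were called higher with MEKi at 24 h, beside 5.01% of all genes. Gsta2, an alpha-class transferase, read 9.43, 9.49 and 9.22 in DMSO and 10.88, 10.95 and 10.57 with MEKi at 24 h, then 10.58, 10.14 and 10.51 in DMSO and 10.94, 10.25 and 10.44 with MEKi at 72 h. It was 1.42 ± 0.11 higher at 24 h (2.68-fold) with all arrays apart, and 0.13 ± 0.18 above DMSO at 72 h with the groups overlapping. Its closest relative, Gsta1, is nearly identical in sequence, and signal from the 2 cannot be told apart with certainty.

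Mgst1, a membrane-bound transferase, read 10.51, 10.74 and 10.68 in DMSO and 11.64, 11.82 and 11.53 with MEKi at 24 h, then 11.88, 11.82 and 11.89 in DMSO and 12.55, 12.55 and 12.56 with MEKi at 72 h. It was higher on all MEKi arrays at both times, by 1.02 ± 0.09 and 0.69 ± 0.08. Gsta4, which conjugates lipid aldehydes, was likewise higher by 0.87 ± 0.08 and 1.06 ± 0.14. Gstm1 and Gstp1 differed by no more than 0.12 at either time. Gpx1, the cytosolic glutathione peroxidase, differed by 0.05 and 0.37, and Gpx4, which reduces lipid peroxides, by 0.21 and 0.00.

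Among the quinone, carbonyl and efflux genes, Osgin1 had the largest lower difference at 24 h, next to that of Maff among all 36. Osgin1, an oxidative stress-induced growth inhibitor, read 8.45, 8.53 and 8.42 in DMSO and 7.11, 7.50 and 7.53 with MEKi at 24 h, then 8.42, 8.44 and 8.20 in DMSO and 8.38, 8.80 and 8.55 with MEKi at 72 h. It was 2.12-fold lower at 24 h (-1.09 ± 0.11), and at 72 h the groups overlapped (0.22 ± 0.12, or 0.15 without DMSO 72 h replicate 3). Nqo1, the quinone reductase often used as an NRF2 marker, read 6.34, 6.47 and 6.39 in DMSO and 6.02, 5.90 and 5.98 with MEKi at 24 h, and 6.72, 6.54 and 6.29 against 6.66, 6.86 and 6.73 at 72 h.

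Nqo1 was therefore lower on all MEKi arrays at 24 h (-0.43 ± 0.07) and overlapped DMSO at 72 h (0.23 ± 0.12, or 0.12 without DMSO 72 h replicate 3). Its mean with MEKi at 24 h, 5.97, was in the range of the immune genes given above. Ephx1, the microsomal epoxide hydrolase, read 11.00, 11.01 and 10.93 in DMSO and 11.72, 11.86 and 11.59 with MEKi at 24 h, and 11.73, 11.45 and 11.39 against 11.89, 11.66 and 11.75 at 72 h. Like Gsta2 it was higher at 24 h (0.74 ± 0.08) and overlapped at 72 h (0.24 ± 0.11). Cbr3, a carbonyl reductase, was lower at both times (-0.64 ± 0.10 and -0.54 ± 0.10). Ugdh, which makes UDP-glucuronic acid, differed by 0.00 and -0.22, and the efflux pumps Abcc1 and Abcc4 by -0.31 and -0.18 and by -0.01 and 0.18.

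**Figure D3:**
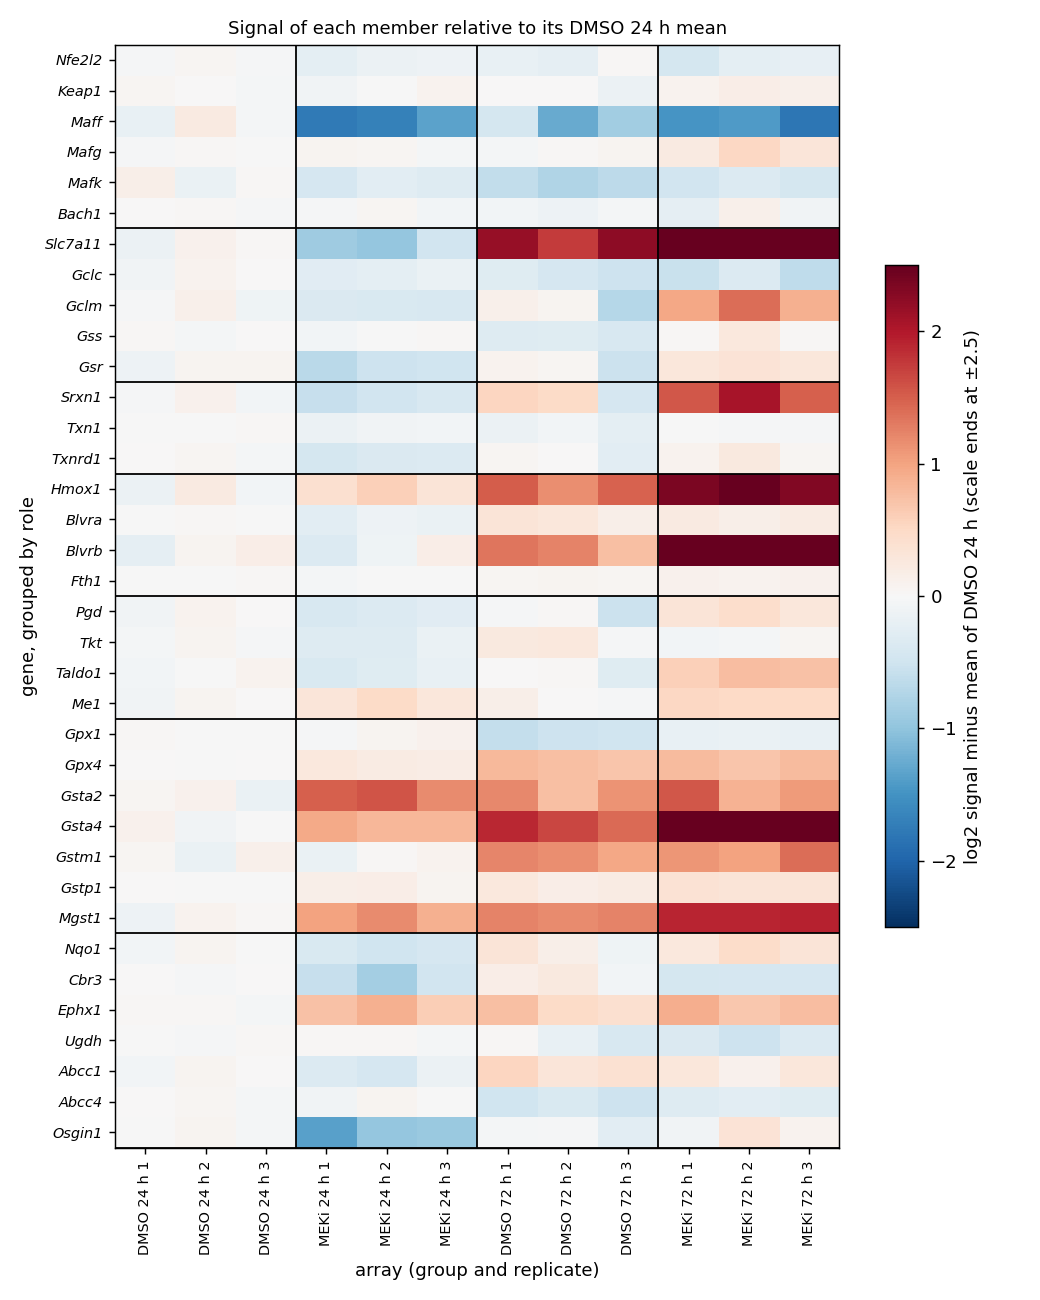
Log2 signal of each of the 36 genes (rows, grouped by role) on each of the 12 arrays (columns), relative to the gene's mean in DMSO at 24 h. The transferases Gsta2, Gsta4 and Mgst1 are red already with MEKi at 24 h, while Slc7a11, Gclm, Srxn1 and Osgin1 are blue there.

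Many of the genes also differed between the harvest times in DMSO, a comparison that did not choose them. Its arrays are the controls of both MEKi comparisons, so it is not independent of the choice. High DMSO arrays at 24 h or low ones at 72 h favour both the low-then-high pattern and a fall over time. In DMSO, 12 of the 36 rose from 24 h to 72 h and 6 fell (limma, adjusted p under 0.05), beside 14.2% and 16.9% of all genes, and without DMSO 72 h replicate 3 the counts were 13 and 6. The median over the 36 was 0.03, against 0.04 over all genes. Slc7a11 rose by 2.06 ± 0.13 (4.17-fold, limma adjusted p = 6.2e-05), Gsta4 by 1.65 ± 0.12 (limma adjusted p = 8.1e-05), and Hmox1 by 1.38 ± 0.12 (limma adjusted p = 0.000166). The part that the labelling difference between the times plays in these changes was not tested.

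The peroxidase and transferase group rose in 6 of its 7 genes, by 0.21 (Gstp1) to 1.65 (Gsta4), with Mgst1 at 1.22 ± 0.08, Gstm1 at 1.12 ± 0.10, Gsta2 at 1.03 ± 0.13 and Gpx4 at 0.75 ± 0.07. Gpx1 fell by 0.54 ± 0.07 (-0.54, limma adjusted p = 0.000695). Among 15 further peroxidases and transferases of the pathway tested by limma, 10 rose. Of the 10, Gpx3 (mean signal 6.28), Gstt1 (5.93), Gstt2 (5.68) and Mgst2 (5.125) were in the range of the immune genes given above. These 15 are part of the 65 other pathway genes counted below. Over all genes 14.2% rose and 16.9% fell.

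Of the glutathione synthesis genes, Gclc fell by 0.41 ± 0.09 (-0.41, limma adjusted p = 0.00761) and Gss by 0.34 ± 0.07 (-0.34, limma adjusted p = 0.00825). Maff fell by 0.86 ± 0.19 (-0.86, limma adjusted p = 0.0106) and Mafk by 0.68 ± 0.09 (-0.68, limma adjusted p = 0.00098). Blvrb rose by 1.11 ± 0.16 (limma adjusted p = 0.00134) and Ephx1 by 0.54 ± 0.10 (limma adjusted p = 0.00394). Blvra and Abcc1 also rose, by 0.25 and 0.41, and Abcc4 fell by 0.47.

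Several genes of the low-then-high kind did not pass the test over time in DMSO: Srxn1 at 0.20 ± 0.22 (limma adjusted p = 0.566), Gclm at -0.18 ± 0.20 (limma adjusted p = 0.562), Txnrd1 at -0.07, Nqo1 at 0.12 and Osgin1 at -0.11. Srxn1 did pass without DMSO 72 h replicate 3, at 0.51 (limma adjusted p = 0.00592), while Gclm was then at 0.10. Other genes below DMSO at 24 h and above it at 72 h did pass with all arrays. Of these, Slc7a11, Blvrb and Gstm1 rose and Mafk, Gss and Abcc4 fell. Nfe2l2 was at -0.13 ± 0.09 (limma adjusted p = 0.332), and its second, dimmer probe set rose by 1.19 ± 0.20, so its change over time differs between probe sets.

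**Figure D4:**
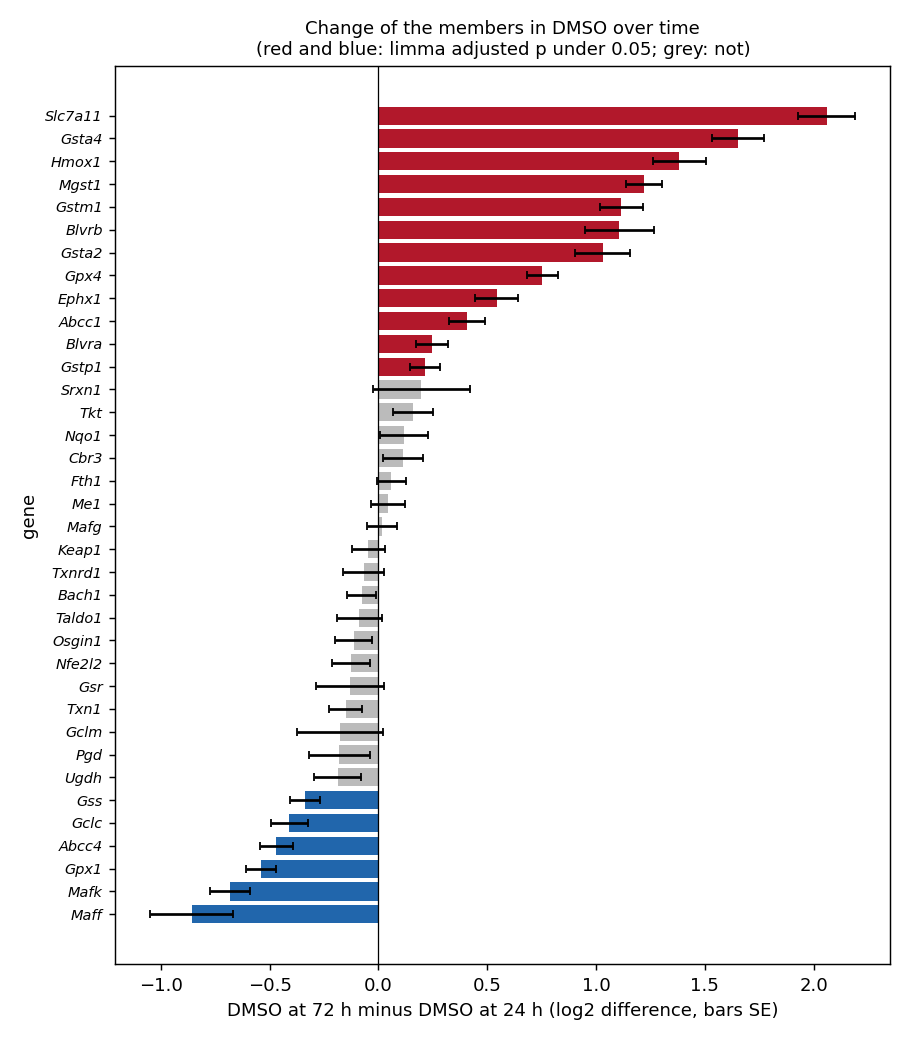
Difference between DMSO at 72 h and DMSO at 24 h (log2, x axis, 3 arrays each) for the 36 genes, with bars of 1 standard error; red and blue mark limma adjusted p under 0.05. Slc7a11, Gsta4, Hmox1 and Mgst1 are the highest and Maff and Mafk the lowest, while Srxn1 and Gclm have wide error bars that span 0.

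Within groups, replicate arrays moved many of these genes together. Each gene's deviations from its group means were compared with those of Srxn1 over the 12 arrays, which share arrays and replicate numbers, so the coefficients are a description. Pearson's r was 0.986 for Gclm, 0.975 for Txnrd1, 0.937 for Pgd, 0.872 for Nqo1 and 0.865 for Gsr. In contrast it was 0.173 for Slc7a11, -0.084 for Mgst1, -0.357 for Gsta2 and -0.443 for Nfe2l2. Over the other 35 genes the median was 0.367 and 16 (45.7%) were above 0.5, beside a median of -0.021 and 15.8% over all genes.

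DMSO 72 h replicate 3 sets a large part of this. Without it the median over the 35 genes was 0.287, and 11 (31.4%) were above 0.5, beside 11.4% of all genes. Gclm (0.951), Txnrd1 (0.944) and Gclc (0.91) then had the highest coefficients among the 35. Hmox1 was at 0.895, Slc7a11 at 0.749 and Gsr at 0.413. The lowest were Gpx4 (-0.816), Gsta4 (-0.782), Ugdh (-0.592) and Gstm1 (-0.53), and Txn1 went from 0.673 to -0.102. Nfe2l2 turned to 0.377, so its negative coefficient rests on that 1 array.

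**Figure D5:**
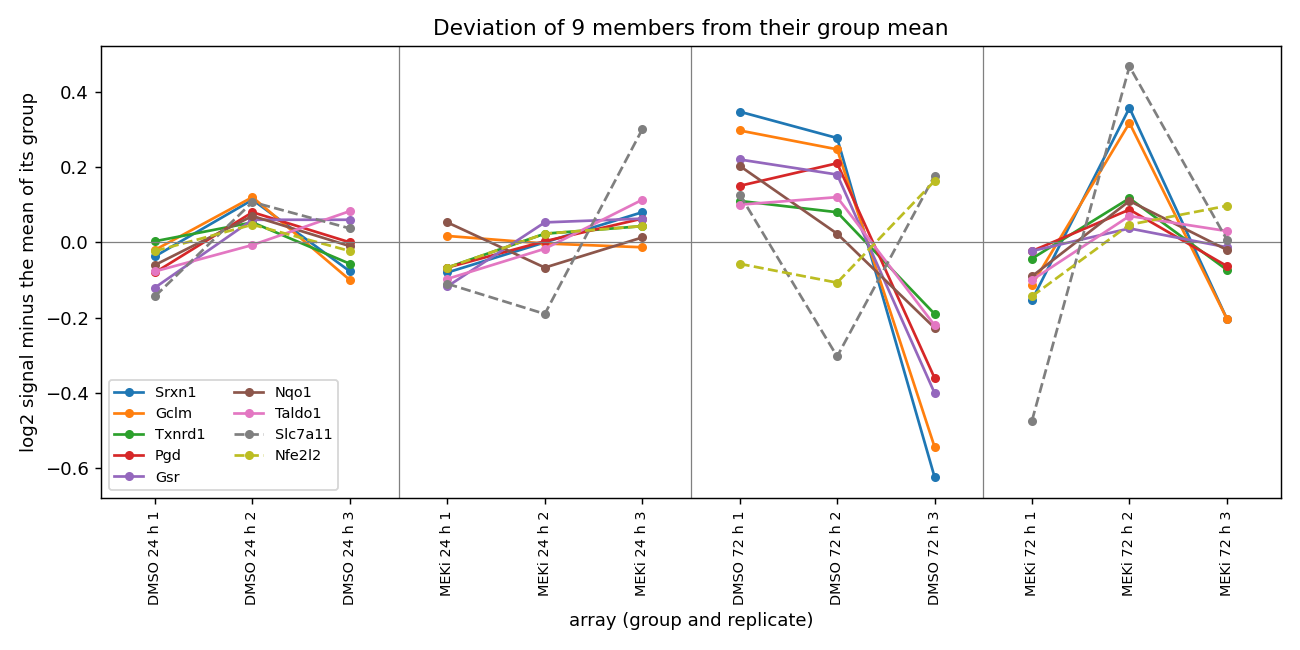
Deviation of 9 genes from the mean of their group (log2, y axis) on each of the 12 arrays (x axis, 4 groups of 3). Lines join the points of 1 gene and imply no order; Srxn1, Gclm, Pgd and Gsr lie below the mean together in DMSO 72 h replicate 3, where Slc7a11 and Nfe2l2 (dashed) lie above it.

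Other genes of the pathway, 65 measured, were not chosen by the MEKi differences except that Sqstm1 was known, and they were tested. At 24 h 6 rose (9.23%) and 4 fell (6.15%) with MEKi, beside 5.01% and 5.86% of all genes, and without MEKi 24 h replicate 1 the counts were 1 and 2. Mgst3, a microsomal transferase, rose by 0.64 ± 0.07 (limma adjusted p = 0.00326), and Cth, which makes cysteine by transsulfuration, fell by 0.64 ± 0.09 (-0.64, limma adjusted p = 0.00727). Gsto1 fell by 0.51, and Gstt3, Gpx8 and Gstm2 rose by 0.37, 0.37 and 0.29. The calls of Gstt3, Gpx8 and Gstm2 were lost without MEKi 24 h replicate 1 or 2, and those of Gstt3 and Gstm2 also without DMSO 24 h replicate 2 or 3.

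At 72 h 8 of the 65 rose (12.3%) and 5 fell (7.69%), beside 4.03% and 5.14% of all genes, and without MEKi 72 h replicate 2 the counts were 2 and 0. Sqstm1 (p62), which binds KEAP1 and is also an NRF2 target, read 12.90, 12.97 and 12.89 in DMSO and 13.36, 13.65 and 13.56 with MEKi, and rose by 0.60 ± 0.09 (limma adjusted p = 0.00551). Sqstm1 is counted among the 8, but its result was known before the list was made, so its value is a description. The iron exporter Slc40a1 and the heme transporter Slc48a1 rose by 0.57 ± 0.09 (limma adjusted p = 0.00632) and 0.48 ± 0.09 (limma adjusted p = 0.0127), and Glrx2 by 0.47. Cth fell by 1.39 ± 0.29 (-1.39, limma adjusted p = 0.0198) and Gstk1 by 0.75 ± 0.14 (-0.75, limma adjusted p = 0.0118). Without MEKi 72 h replicate 2 limma called none of the 65 lower, with 7 at an unadjusted p under 0.05, and the calls of Slc48a1 and Glrx2 were lost too.

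In DMSO over time 19 of the 65 rose (29.2%) and 9 fell (13.8%), beside 14.2% and 16.9% of all genes. Chac1, which degrades glutathione, rose by 2.29 ± 0.16 (limma adjusted p = 7.95e-05), Txnip, an inhibitor of thioredoxin, by 1.81 ± 0.12, and Cth by 1.55 ± 0.24. Sesn2 and Gstm5 rose by 1.27 and 1.06, and Tfrc, the transferrin receptor, fell by 1.05 ± 0.16 (-1.05).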

How the data were processed

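The deposited values are log2 signals that the authors made by robust multichip averaging (RMA), per the series' design text; software versions and the annotation they used are not given in the sources used here. Labelling used 200 ng of total RNA. The values of 45037 probe sets that are not controls, on 12 arrays, were fitted with limma 3.58.1 in R 4.3.3, a pair of groups at a time (all 12 arrays for the difference of the MEKi effects), with Benjamini-Hochberg adjustment over all probe sets and a threshold of 0.05. Each gene was read from its brightest own probe set, named through GEO's platform annotation with RefSeq symbols; 34945 probe sets had 1 gene symbol and 932 several. All 36 measured genes had a mean signal over the 12 arrays above the median probe set's (5.36), and 6 were read from probe sets that may share sequence with other transcripts (Gclc, Srxn1, Pgd, Tkt, Gstm1 and Fth1).

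The genes and lists were chosen with earlier results of these data known, including those for Slc7a11, Gsta2, Maff and Sqstm1. Values on every array are given for 12 preset genes and the 8 others with the largest difference of the MEKi effects; of the other pathway genes, up to 6 called with the largest differences are named per comparison. Replicate numbers were checked as pairs: within a time, same-numbered DMSO and MEKi arrays deviated together, with r of 0.073 to 0.151 at 24 h and 0.13 to 0.189 at 72 h over all probe sets (0.207 to 0.307 in the brighter probe sets), so a replicate block was fitted as an alternative. DMSO arrays of different times did not (0.006 to 0.034). The other alternatives were 1 fit of all 12 arrays, averaging all probe sets of a gene, arrays centred on their median, the brighter probe sets alone, a trended and robust prior, and fits that drop 1 array each. Before use, the fits were run on simulated data with noise drawn independently for each probe set and array, so without the shared deviations described above. Of 50 simulated 1.5-fold changes, 34 were recovered for MEKi at 72 h and 16 for the difference of the MEKi effects. Of 50 changes of 2-fold, 46 were recovered in each. False calls numbered 7 and 9 among 45037 probe sets.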

Additional observations from a re-analysis of the deposited data

Results flagged for a closer look

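For 20 genes the MEKi effects at 24 h and 72 h differed by limma's contrast on all 12 arrays. The values are the effect at 72 h minus that at 24 h (log2). For the NRF2 targets and glutathione genes they describe a contrast used to choose them. These were 1.997 for Srxn1, 1.953 for Slc7a11, 1.813 for Blvrb, 1.647 for Gclm, 1.31 for Osgin1, 1.07 for Taldo1, 0.997 for Gsr, 0.867 for Pgd, 0.667 for Nqo1, 0.597 for Mafk, 0.573 for Txnrd1, 0.46 for Gss and -1.287 for Gsta2. The calls of Gss, Txnrd1, Nqo1 and Mafk were lost on leaving out 1 array or another, among them MEKi 72 h replicate 2 for each.

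Of the 65 other pathway genes, Sqstm1 (0.86, limma adjusted p = 0.00215), Slc48a1 (0.587, limma adjusted p = 0.0107), Prdx3 (0.5, limma adjusted p = 0.013) and Mgst2 (0.4, limma adjusted p = 0.0428) had the higher effect at 72 h. Mgst3 (-0.84, limma adjusted p = 0.00189), Txnrd2 (-0.56, limma adjusted p = 0.00871) and Idh2 (-0.497, limma adjusted p = 0.014) had the lower one. As means over their probe sets, Txnrd2 (-0.211) and Idh2 (-0.148) were not called. The mean signal of Mgst2, 5.125, was under that of the median probe set (5.36), and its call was not followed through the alternatives. The result for Sqstm1 was known before the list was made, so its value is a description. The control arrays of the 2 times are part of each value, and the labelling differed between the times. Its part in these values was not tested.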

How the results depend on the processing

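Over the alternatives, 1 named gene turned direction with a call: Nfe2l2 over time in DMSO was at 0.533 (limma adjusted p = 0.0094) as the mean over its probe sets. Values that were called neither way crossed or reached 0 in 22 fits: those of Keap1, Gss and Blvrb at 24 h (Blvrb to 0.03), Nfe2l2 and Gsta2 at 72 h (Gsta2 to -0.065), Nfe2l2 for the difference of the effects, and Keap1, Gclm, Gsr, Txnrd1, Taldo1 and Pgd over time. In 1 fit of all 12 arrays, Gclm, Srxn1, Hmox1, Pgd and Cth were not called at 24 h (limma adjusted p of 0.111 to 0.26). As the mean over probe sets, Slc7a11 at 72 h was at 0.643 (limma adjusted p = 0.0968). Other calls were gained. Mafk was called lower at 24 h in 6 alternatives and higher at 72 h with the brighter probe sets (limma adjusted p = 0.0435). At 24 h Nfe2l2 was called lower with the brighter probe sets and the trended prior (limma adjusted p = 0.0418 and 0.0171). Gclc was called lower at 24 h in 3 alternatives, Taldo1 lower at 24 h in 6 and Pgd higher at 72 h in 4. For the other pathway genes called lower at 24 h, the count of 4 became 2 with the replicate block, 2 with 1 fit of all 12 arrays, 9 with the brighter probe sets and 8 with the trended prior. Those called higher became 11 and 10 with the brighter probe sets and the trended prior, and members of the NRF2 list called lower at 24 h 17 and 18. At 72 h, other pathway genes called higher became 15 with 1 fit of all 12 arrays, and NRF2 list genes called lower 1 with centred arrays. For the difference of the effects, NRF2 list genes called lower became 2 with the replicate block, the probe set mean, the brighter probe sets and the trended prior each, and other pathway genes called lower 5 with the replicate block. The block made Ephx1 the further NRF2 list gene (-0.50, limma adjusted p = 0.0316), and apart from Taldo1 at 24 h (limma adjusted p = 0.0437) and Pgd at 72 h (limma adjusted p = 0.0249) it changed no other call of a named gene.

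Leaving out 1 array in turn, NRF2 list genes called lower ranged from 6 (without MEKi 24 h replicate 1) to 13 at 24 h and from 1 to 2 at 72 h (2 only without DMSO 72 h replicate 2). Other pathway genes called higher ranged from 1 (without MEKi 24 h replicate 1 or 2) to 8 at 24 h, with 2 or 3 without a DMSO 24 h array, and from 2 (without MEKi 72 h replicate 2) to 5 at 72 h. Those called lower ranged from 2 to 7 (without MEKi 24 h replicate 3) at 24 h, from 0 to 5 at 72 h and from 3 to 5 (without DMSO 72 h replicate 3) for the difference. The 0 came by limma without DMSO 72 h replicate 1 or MEKi 72 h replicate 2, each with 7 genes at an unadjusted p under 0.05. Cth at 72 h lost its call without DMSO 72 h replicate 1 or MEKi 72 h replicate 1 or 2, and with the trended prior (limma adjusted p = 0.125). With 3 arrays a group, small differences can be missed.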

Other observations

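Proteasome subunit genes, read from symbols that start with Psma, Psmb, Psmc or Psmd, also deviated within groups with Srxn1. Over 40 such genes the median r was 0.727 on 12 arrays, and 28 were above 0.5. Over all genes the median was -0.021, and 15.8% were above 0.5. Without DMSO 72 h replicate 3 the median of the 40 was 0.552, beside -0.015 over all genes. The genes with the highest coefficients after Gclm were Mlkl (0.983), Bcat2 (0.978) and Psmd12 (0.977). These genes were looked at after the coefficients were seen, and the arrays are the same ones, so the values are a description.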
